A study of Rattus norvegicus with 6 samples.

Results

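Erg and 8 other genes of the ETS family of transcription factors (Fli1, Ets1, Ets2, Elf1, Elk3, Etv1, Etv6 and Gabpa) were followed in primary rat chondrocytes treated with retinoic acid (RA). They were found by their gene symbols in the deposited tables, and each of the 9 symbols matched 1 of the 18923 genes. The list names ETS factors other than Etv4 and Etv5 and was selected on measured values, namely the fold changes and calls of the RA and CON comparison in these same 6 samples, so the values of these 9 genes in that comparison are given as a description, without p-values. The chondrocytes were isolated with collagenase from cartilage of female Sprague-Dawley rats at an age of 24 h, wild type by label, and used at passage 1 or 2. All-trans RA at 1 µM was added for 24 h to the 3 RA samples and left out of the 3 CON samples, and both groups were kept in high-glucose DMEM with FBS (10%) and penicillin-streptomycin. Cells of newborn animals in culture limit the model, and the study describes its replicates as biologically independent, without saying which animals or isolations the 3 samples of a group came from, so the tests measure the spread between these samples.

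ETS proteins share a winged helix-turn-helix domain that binds DNA at a GGAA core, and the bases around the core and the partner proteins set which genes each of them acts on. Many are end points of RAS and ERK signaling, and others, such as ETV6, act mainly as repressors. In the skeleton, ERG is known from the developing joint and from articular chondrocytes, where it is tied to keeping cells from hypertrophy, and ERG and FLI1 are also well known from endothelium and blood. Retinoic acid, a vitamin A derivative, acts through nuclear receptors that bind repeats of a hexamer close to AGGTCA.

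The 3 sequences below are shown because Erg and Etv1 had the largest differences of the 9 genes, in opposite directions, while Gabpa had the smallest. Each is the 250 bases upstream of a transcription start as RefSeq places it on assembly GRCr8 of the rat, written 5′ to 3′ along the gene's strand. Capitals mark the ETS core, which appears as GGAA on the strand shown and as TTCC where it lies on the other strand. A gene can have further starts that are not shown, and the start used for Erg lies within the gene.
Erg (chr11:48251567-48251816, minus strand): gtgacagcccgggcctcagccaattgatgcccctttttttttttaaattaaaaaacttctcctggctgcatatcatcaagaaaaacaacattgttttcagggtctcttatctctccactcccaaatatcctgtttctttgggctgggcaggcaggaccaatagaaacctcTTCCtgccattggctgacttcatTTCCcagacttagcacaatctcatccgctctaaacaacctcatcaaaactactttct
Etv1 (chr6:61317179-61317428, plus strand): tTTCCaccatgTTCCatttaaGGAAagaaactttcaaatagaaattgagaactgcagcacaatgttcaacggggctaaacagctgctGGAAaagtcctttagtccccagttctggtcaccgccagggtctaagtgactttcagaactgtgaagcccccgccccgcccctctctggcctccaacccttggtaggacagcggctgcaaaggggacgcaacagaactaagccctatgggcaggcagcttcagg
Gabpa (chr11:37375014-37375263, plus strand): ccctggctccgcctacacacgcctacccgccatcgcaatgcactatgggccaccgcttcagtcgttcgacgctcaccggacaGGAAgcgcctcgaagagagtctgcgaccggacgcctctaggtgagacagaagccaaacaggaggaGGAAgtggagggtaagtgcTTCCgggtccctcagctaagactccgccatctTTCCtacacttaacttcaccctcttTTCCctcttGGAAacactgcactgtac

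Of the 9 genes, 6 had an entry in this promoter table (Erg, Ets2, Elf1, Elk3, Etv1 and Gabpa). Counted on both strands, the core GGAA occurred 2 times upstream of Erg, 4 times upstream of Etv1 and 6 times upstream of Gabpa. Among all 33469 promoters of the table, 93.2% held at least 1 such core in the same window, 77.4% held at least as many as Erg, 34.7% at least as many as Etv1 and 9.27% at least as many as Gabpa. The longer core CCGGAA, which contains GGAA, was found in 12.6% of all promoters and, of the 6, only upstream of Gabpa, once and on the minus strand of the window. The hexamer AGGTCA was found in 14.1% of all promoters and, of the 6, only upstream of Elk3. These are matches of letters in a short window, and no binding was measured.

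Total counts ran from 29370025 to 38007486 per sample, and 13438 genes passed edgeR's filter on low counts (filterByExpr). A gene was called changed when edgeR's quasi-likelihood test gave a Benjamini-Hochberg adjusted p below 0.05 and the log2 fold change lay beyond 0.58 in either direction. By this rule 4.96% of all genes tested were called, 2.67% as higher and 2.29% as lower in RA, and the median log2 fold change of all genes tested was -0.0057. All gene and marker lists below were also chosen with earlier results of these data known. Their counts, shares and p-values describe these samples and are no independent support. The label was checked against 11 chondrocyte markers, which were all expressed: Col2a1, the type II collagen gene, stood at 5420.1 FPKM in CON and 3185 FPKM in RA on average. Fibroblast markers were expressed too, from Dpt, at 1.39 FPKM in CON, to Col1a1, at 2976 FPKM in CON and 3478 in RA. Col1a1 was below Col2a1 in each CON sample and above it in each RA sample. Each of the 11 chondrocyte markers had a negative log2 fold change, 10 were called lower in RA, and the median was -0.93. The exception to the call was Sox9, the chondrocyte transcription factor, at -0.49 (edgeR adjusted p = 0.00608). Without CON sample 3 or without RA sample 1, Comp, a matrix gene at -0.64 with all samples, was not called (-0.56 and -0.57), and Col11a2, at -0.70, lost its call when CON sample 2, or either of RA samples 1 and 2, was left out (-0.64, -0.64 and -0.71). CON sample 1 stood somewhat apart, with Pearson correlations of 0.985 and 0.983 (log2 CPM, across genes) with the other CON samples, against 0.992 between those and 0.991 between any 2 RA samples.

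All 9 ETS genes passed the filter on low counts. Values are means ± SD over the 3 samples of a group, and SE is the standard error of a log2 fold change. Of the 9 genes, 2 met the call rule, Erg as lower and Etv1 as higher in RA, a share that stands beside 4.96% of all genes tested and from which nothing is read, since the genes were chosen with this comparison known. With no fold threshold the count was again 2, beside 9.82% of all genes. The other 7 had log2 fold changes between -0.24 and 0.21, 5 above and 2 below 0. The median over the 9 was 0.088, beside -0.0057 for all genes tested. The groups did not overlap in FPKM for 5 of the 9 (Erg, Etv1, Ets1, Ets2 and Elk3), a pattern shown by 32.2% of all genes tested.

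**Figure D1:**
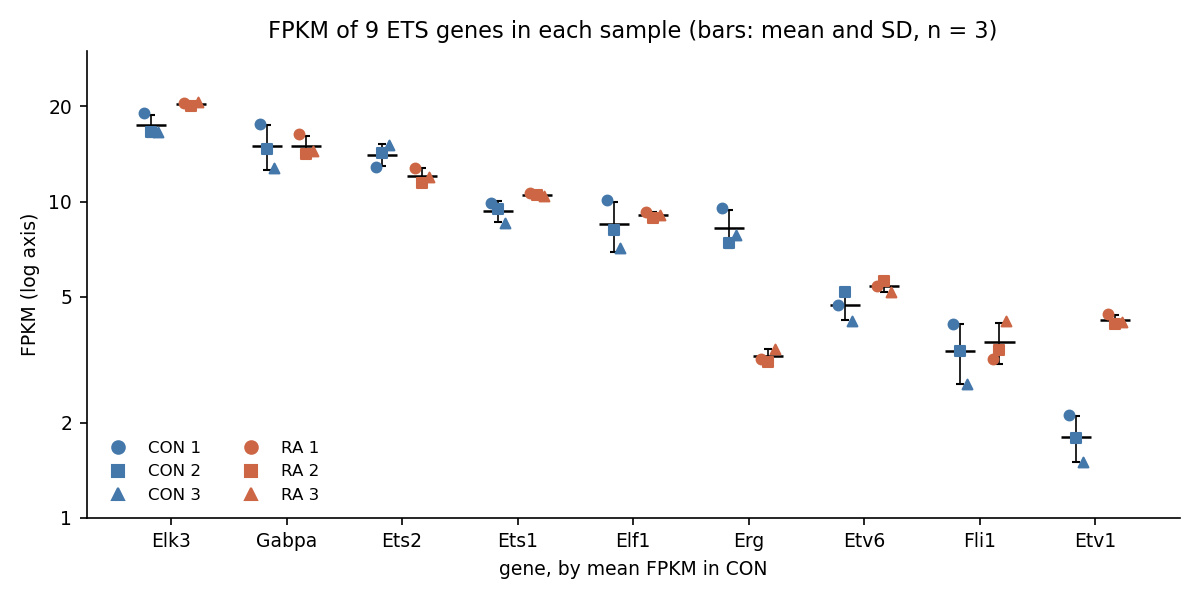
FPKM (read count scaled by gene length and total count, log axis) of the 9 ETS genes in each of the 3 CON samples (blue) and 3 RA samples (orange), with symbols for sample numbers and black bars for mean and SD. Erg moves from 7.41 to 9.53 in CON down to 3.12 to 3.43 in RA, and Etv1 from 1.50 to 2.11 up to 4.11 to 4.41, while the other 7 genes lie close together in both groups.

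Erg (ENSRNOG00000001652), the joint and articular factor of the set, had 9.53, 7.41 and 7.84 FPKM in CON samples 1, 2 and 3 and 3.18, 3.12 and 3.43 FPKM in RA samples 1, 2 and 3. The lowest CON sample was thus above the highest RA sample by a wide margin, and the RA samples lay closer together than the CON samples. The mean went from 8.26 ± 1.12 to 3.25 ± 0.164 FPKM (n = 3, SD). Its log2 fold change was -1.36 (SE 0.119), or 0.39 times the CON level. The reads behind these values were 703, 537 and 715 counts in CON and 227, 220 and 255 counts in RA. Over fits that each omitted 1 sample, the log2 fold change of Erg stayed between -1.44 and -1.25, the latter without CON sample 1, where Erg was highest. Erg met the call rule in all 6 of those fits. In absolute size, its change was larger than that of 98.0% of all genes tested. This rank is a description from which nothing is read, since Erg was chosen with this comparison known. In bulk RNA, fewer Erg-expressing cells and less Erg RNA per cell cannot be told apart, and the part of the lower chondrocyte markers in the Erg difference was not tested.

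Fli1 (ENSRNOG00000008904), the nearest relative of Erg and a regulator of endothelial and blood cells, had groups that overlapped. It had 4.12, 3.37 and 2.65 FPKM in CON and 3.18, 3.40 and 4.21 FPKM in RA, so that the RA samples lay within or just above the range of the CON samples. The log2 fold change was 0.084 (standard error 0.187), the largest standard error of the 9 genes, and it ran from -0.059 to 0.25 with each sample left out. Fli1 had between 172 and 237 counts per sample, the lowest counts of the 9 genes in CON. The ratio of Erg to Fli1 FPKM was 2.49 ± 0.41 in CON and 0.911 ± 0.0925 in RA (n = 3, SD). Erg was therefore the more abundant of the pair in every CON sample, while in RA their levels met: the ratio was 1.00, 0.916 and 0.816 in the 3 RA samples.

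Etv1 (ENSRNOG00000006867), a factor of the PEA3 subfamily that ERK signaling is known to act on, had the opposite pattern to Erg. It had 2.11, 1.79 and 1.50 FPKM in CON and 4.41, 4.11 and 4.16 FPKM in RA. Again the groups did not overlap, and the lowest RA sample lay well above the highest CON sample. The mean rose from 1.80 ± 0.302 to 4.23 ± 0.163 FPKM (n = 3, SD), with log2 fold change 1.22 (SE 0.117), or 2.33 times the CON level. The log2 fold change stayed between 1.11, without CON sample 3, and 1.35, without CON sample 1, and Etv1 met the call rule in all 6 of these fits. Per length, the ratio of Etv1 to Erg FPKM went from 0.218 ± 0.0248 in CON to 1.31 ± 0.0869 in RA (n = 3, SD), so the order of these genes was turned around in each RA sample.

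Ets1 and Ets2, the founding members of the family and partners of AP-1 at protease promoters, had small differences of opposite sign. Ets1 (ENSRNOG00000008941) had 9.93, 9.49 and 8.53 FPKM in CON and 10.7, 10.5 and 10.4 FPKM in RA, with log2 fold change 0.16 (SE 0.0688). Ets2 (ENSRNOG00000001647) had 12.9, 14.3 and 15.1 FPKM in CON and 12.8, 11.5 and 11.9 FPKM in RA, with log2 fold change -0.24 (SE 0.0817). In both the groups just failed to overlap, and CON sample 1 was the CON sample nearest to RA. Neither met the call rule with all samples or in any fit that left out 1 sample. The ratio of Ets2 to Ets1 FPKM went from 1.52 ± 0.236 to 1.15 ± 0.0536 (n = 3, SD), with no overlap between the groups.

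Elk3 (ENSRNOG00000004367), a ternary complex factor that works with the serum response factor and acts as a repressor until ERK signaling reaches it, was the most abundant of the 9 genes per length in both groups. Its FPKM was 19.1, 16.6 and 16.6 in CON and 20.5, 20.1 and 20.6 in RA, with log2 fold change 0.21 (SE 0.0702), which did not meet the call rule. Etv6 (ENSRNOG00000005984), a repressor, had 4.73, 5.18 and 4.20 FPKM in CON and 5.42, 5.62 and 5.16 FPKM in RA, with log2 fold change 0.19 (SE 0.112). Here the groups touched, since the highest CON sample lay just above the lowest RA sample.

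Elf1 and Gabpa are broadly expressed activators, and Gabpa is the DNA-binding subunit of the GABP complex, known for its sites in promoters of mitochondrial genes. Elf1 (ENSRNOG00000011762) had 10.2, 8.12 and 7.15 FPKM in CON and 9.26, 8.86 and 9.09 FPKM in RA, with log2 fold change 0.088 (SE 0.117). Gabpa (ENSRNOG00000053205) had 17.7, 14.6 and 12.8 FPKM in CON and 16.4, 14.2 and 14.4 FPKM in RA, with log2 fold change -0.016 (SE 0.113). In both genes the RA samples lay inside the range of the CON samples. The sign of the log2 fold change of Fli1, Elf1 and Gabpa depended on the samples used: over the 6 fits that left out 1 sample it ran from -0.014 to 0.23 for Elf1 and from -0.11 to 0.11 for Gabpa. In limma on log2 FPKM with a pseudocount of 0.1 or 1 that of Gabpa was also above 0, at 0.0049 and 0.0041.

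By mean FPKM in CON, the order was Elk3 (17.4), Gabpa (15.0), Ets2 (14.1), Ets1 (9.32), Elf1 (8.47), Erg (8.26), Etv6 (4.70), Fli1 (3.38) and Etv1 (1.80). The ranges over samples overlapped between Elk3 and Gabpa, Gabpa and Ets2, Ets1 and Elf1, and Elf1 and Erg. Compared within each library, Elk3 was above Gabpa in 3 of 3 CON samples, while each of the other overlapping pairs kept its order in 2 of 3. The order within those other pairs is thus not settled by these samples. In RA the order was Elk3 (20.4), Gabpa (15.0), Ets2 (12.1), Ets1 (10.5), Elf1 (9.07), Etv6 (5.40), Etv1 (4.23), Fli1 (3.60) and Erg (3.25). The first 6 places were apart from one another in RA, while Etv1 and Fli1, and Fli1 and Erg, overlapped and kept their order in 2 of 3 RA samples. Erg thus went from the sixth place to the last, and Etv1 from the last to the seventh. The coefficient of variation of FPKM was lower in RA than in CON for 9 of the 9 genes, as it was for 71.6% of all genes tested. In 7 of the 9 genes CON sample 1 had the highest CON value, a larger share than the 43% of all genes tested.

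Erg and Ets2, and likewise Fli1 and Ets1, are next to each other in the rat genome: no other protein-coding gene lies between them in the RefSeq order of GRCr8. Erg fell while its neighbour Ets2 had a log2 fold change of -0.24, and Psmg1, a proteasome assembly gene on the far side of Ets2, had -0.17 (edgeR adjusted p = 0.247). Kcnj15, a potassium channel gene on the other side of Erg, had between 2 and 10 counts per sample and was not tested. Around Fli1 and Ets1, the outer neighbours Kcnj1 (0 to 2 counts) and Kirrel3 (0 to 9 counts) were likewise too low to be tested.

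The remaining family members give the background to these 9. Of 18 other ETS genes listed, 15 were in the files and 9 passed the filter on low counts. By edgeR's test 2 of these 9, Etv4 and Etv5, rose and none fell, beside 2.67% and 2.29% of all genes tested. This list too was chosen with earlier results known, with Etv4 and Etv5 set apart from the genes described above. Nothing is therefore read from this count. Etv4 and Etv5 are the other PEA3 genes. Etv4 rose from 0.919 ± 0.281 to 5.59 ± 0.691 FPKM (n = 3, SD), with log2 fold change 2.59 (SE 0.222, edgeR adjusted p = 2.37e-04), which was 1.79 in limma on log2(FPKM + 1), still called. Etv5 rose from 6.73 ± 0.512 to 15.9 ± 0.476 FPKM (n = 3, SD), with log2 fold change 1.23 (SE 0.0744, edgeR adjusted p = 5.22e-05). All 3 PEA3 genes, Etv1 included, were thus higher in each RA sample than in any CON sample, and those 3 are the ETS genes called higher.

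The 7 other tested genes did not pass, at log2 fold changes of -0.17 for Elf2, 0.17 for Elf4, 0.090 for Elk1, 0.063 for Elk4, 0.023 for Erf, -0.024 for Etv3 and 0.38 for Spi1 (adjusted p from 0.165 to 0.929, edgeR). The sign of Erf, Etv3 and Spi1 changed in fits that left out 1 sample. Elf1's relatives Elf2 and Elf4 and the ternary complex factors Elk1 and Elk4 were expressed between 6.90 and 25.7 FPKM, and the repressor Erf, at 22.5 to 31.6 FPKM, was more abundant than any of the 9 genes described here. Spi1, the myeloid factor, had 7 to 22 counts per sample. The epithelial factors Elf3, Elf5, Ehf and Spdef, the lymphoid Spib and the endothelial Etv2 had 0 to 17 counts per sample and were not tested. Among them Ehf had 3 to 5 counts in CON and 6 to 17 in RA. Etv3l, Fev and Spic were not analysed here.

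**Figure D2:**
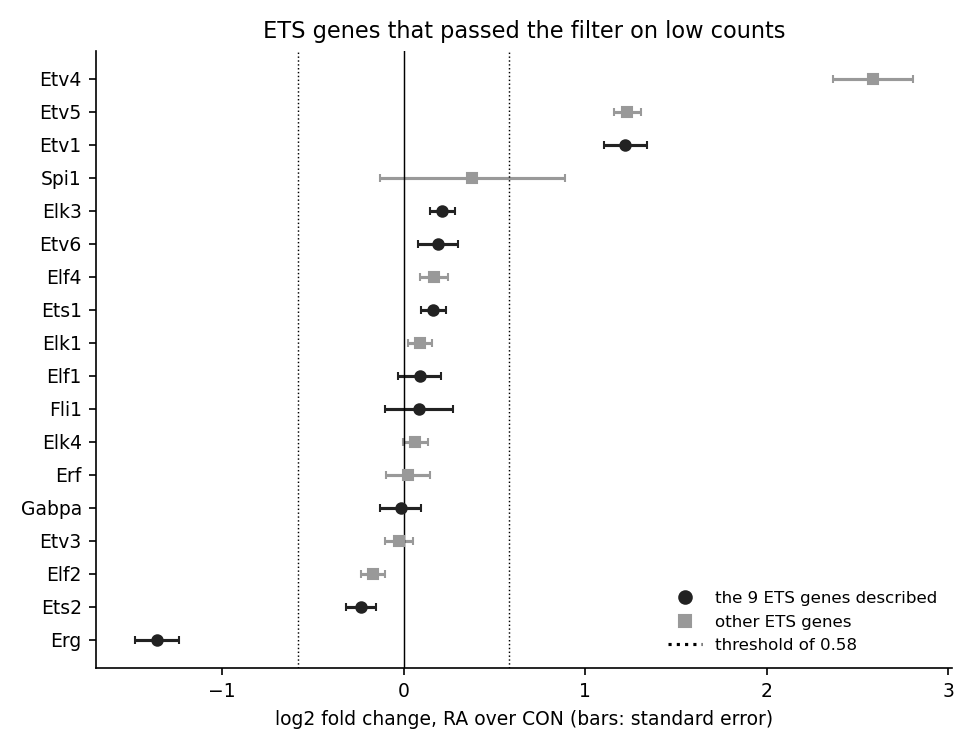
Log2 fold change of RA over CON (bars: standard error, from edgeR with 3 samples per group) of the 18 ETS genes that passed the filter on low counts, the 9 described here as black circles and the others as gray squares, with dotted lines at 0.58 in either direction. Erg stands alone on the left at -1.36, the PEA3 genes Etv1, Etv5 and Etv4 stand on the right at 1.22, 1.23 and 2.59, and the other 14 lie between the dotted lines.

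Summed by subfamily, the FPKM of the ERG group (Erg and Fli1) came to 13.6, 10.8 and 10.5 in CON and to 6.37, 6.52 and 7.64 in RA. The PEA3 group (Etv1, Etv4 and Etv5) had 8.91, 10.2 and 9.28 in CON and 27.1, 25.0 and 25.1 in RA. In every CON sample the ERG sum was above the PEA3 sum, and in every RA sample the PEA3 sum was the larger by far. As a share of the FPKM of all 24 ETS genes in the files, the ERG group went from 6.57% ± 0.88 to 3.52% ± 0.352 and the PEA3 group from 5.34% ± 0.422 to 13.2% ± 0.506 (n = 3, SD). The ETS group (Ets1 and Ets2) had 23.4 ± 0.52 in CON and 22.6 ± 0.796 in RA, and the ternary complex factors (Elk1, Elk3 and Elk4) had 47.6 ± 2.44 and 52.7 ± 1.19 (n = 3, SD). The sum over all ETS genes was 177 ± 2.72 in CON and 195 ± 2.44 in RA. The sums of the ETS group overlapped between CON and RA, while those of the ternary complex factors and the family were higher in each RA sample. By share of the family total this was the other way round. The ETS group went from 13.2% ± 0.49 to 11.6% ± 0.288 with no overlap (n = 3, SD). The ternary complex factors overlapped, at 26.9% ± 1.01 in CON and 27.1% ± 0.502 in RA (n = 3, SD).

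**Figure D3:**
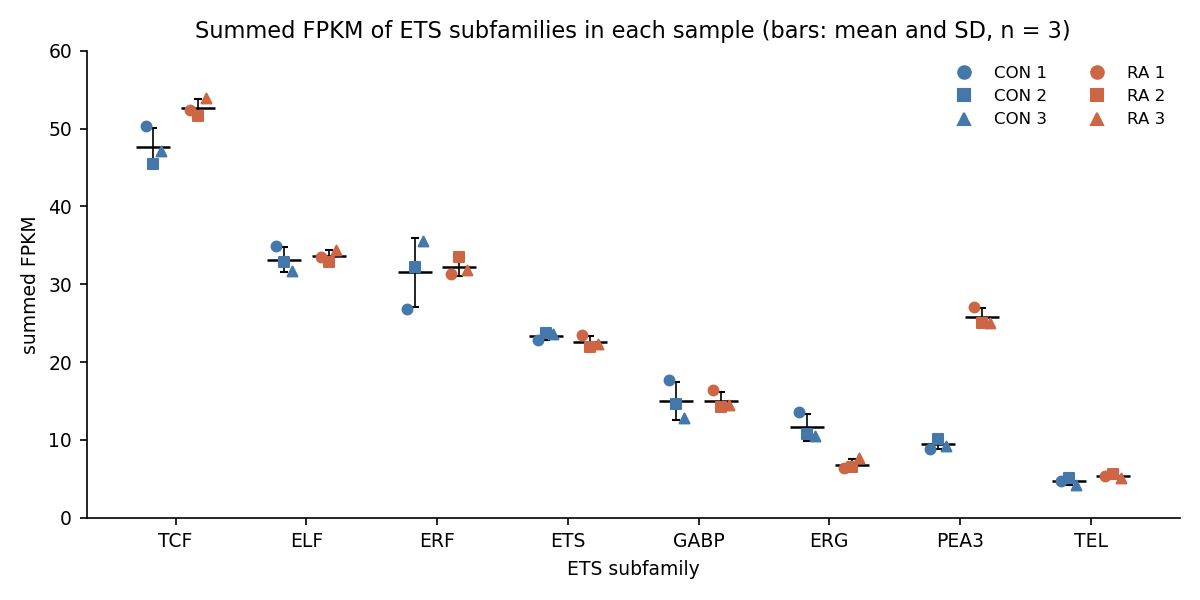
Summed FPKM of 8 ETS subfamilies in each of the 3 CON samples (blue) and 3 RA samples (orange), with black bars for mean and SD; subfamilies with a mean sum in CON of 1 FPKM or less are not drawn. The ERG sum drops from 11.6 to 6.84 and the PEA3 sum climbs from 9.45 to 25.8 on average, while ELF, ERF, ETS, GABP and TEL overlap between the groups.

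ERG and FLI1 mark endothelial and blood cells, so markers of both were examined in the same libraries. Of 12 endothelial markers 8 were in the files. Emcn had no read in any sample, Cdh5, which encodes VE-cadherin, had 0 or 1, Kdr, a VEGF receptor gene, had 0 to 5, Esam 0 to 7 and Vwf 5 to 10 counts per sample. Tek, an angiopoietin receptor gene, had 2 to 23 counts and Flt1, another VEGF receptor gene, 30 to 60, while Erg had 220 to 715. The log2 fold change was 0.30 for Flt1 and 0.15 for Tek (edgeR adjusted p of 0.555 and 0.922), and with each sample left out it ran from 0.14 to 0.50 for Flt1 and from -0.32 to 1.35 for Tek, and the other alternatives took it as low as 0.054 and 0.013. The summed FPKM of the 8 ran from 5.75 to 8.27 in CON and from 6.56 to 7.01 in RA, nearly all of it from Egfl7, at 6.81 ± 1.38 and 6.32 ± 0.366 FPKM (n = 3, SD). Egfl7 had a log2 fold change of -0.12 (edgeR adjusted p = 0.687), which turned to 0.020 once CON sample 3 was left out. Of the 3 endothelial markers tested edgeR and DESeq2 each called 0, beside 4.96% of all genes tested by edgeR, and 0 had an unadjusted p under 0.05, beside 24.0%, so that these counts do not set the markers apart.
Of 10 blood and macrophage markers, the pan-leukocyte gene Ptprc had 0 to 5 counts per sample and Adgre1, a macrophage gene, 0 or 1. The macrophage genes Csf1r and Cd68 had 6 to 28 and 42 to 48 counts, Laptm5, a leukocyte gene, 33 to 83, and Cd14, a monocyte receptor gene, 612 to 873. The summed FPKM of the 10 was 15.3 to 16.1 in CON and 17.1 to 18.5 in RA, most of it from Cd14. Of the 5 tested edgeR and DESeq2 each called 0, beside the same 4.96%, and 2 had an unadjusted p under 0.05, beside 24.0%, in opposite directions, Cd14 at 0.23 and Laptm5 at -0.61 (edgeR adjusted p of 0.138 and 0.199). Csf1r had 0.91 (edgeR adjusted p = 0.305), which ran from 0.62 to 1.65 with each sample left out and was as low as 0.11 under the other alternatives. The part of these markers in the ETS values was not tested.

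Genes of the joint interzone and articular cartilage, the setting in which ERG is best known in the skeleton, held 1 gene that fell. Of 16 listed, 15 were in the files and 13 were tested, and 1, Cilp, was called, as lower, or 7.69% beside 2.29% of all genes tested. The median log2 fold change of the 13 was -0.16. Cilp, which encodes a matrix protein of the middle zone of articular cartilage, fell from 8.66 ± 0.577 to 4.03 ± 0.431 FPKM (n = 3, SD), a log2 fold change of -1.12 (edgeR adjusted p = 2.85e-04). Gdf5, a growth factor of the joint interzone, had 12.7 ± 0.766 and 13.1 ± 0.465 FPKM (n = 3, SD), a log2 fold change of 0.031 that was -0.019 without CON sample 1 (standard error 0.0837, all samples). Prg4, the lubricin gene of the articular surface, had log2 fold change -0.16 (SE 0.0972, edgeR adjusted p = 0.357), and -0.22 to -0.091 with each sample left out. The count rests in part on CON sample 1, without which 4 genes were called: Cilp, the BMP antagonists Nog and Chrd, at -0.68 and -0.59, and Dcx, a gene of articular chondrocytes, at 0.62. With all samples Nog, Chrd and Dcx had log2 fold changes of -0.56, -0.41 and 0.55 (edgeR adjusted p of 0.0419, 0.177 and 0.0302).

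Among 10 genes of growth plate hypertrophy, 4 rose and 0 fell, beside 2.67% and 2.29% of all genes tested. They were Mmp13 at a log2 fold change of 2.26, Col10a1, the collagen gene of hypertrophic chondrocytes, at 2.16, Spp1, which encodes osteopontin, at 1.88, and Ibsp, the bone sialoprotein gene, at 1.47 (adjusted p from 2.34e-06 to 0.00807, edgeR). Col10a1 and Ibsp were low, at 0.89 ± 0.283 and 1.54 ± 0.309 FPKM in RA (n = 3, SD), and in limma on log2(FPKM + 1) their values were 0.65 and 0.71, still called. Others lay below 0: Alpl, the tissue alkaline phosphatase gene, had -0.42 (edgeR adjusted p = 0.0219) and Ihh, the hedgehog ligand of prehypertrophic cells with 2 to 27 counts per sample, had -1.63 (edgeR adjusted p = 0.0669). Without CON sample 1 Ihh was called as well, at -1.75, while its value was -0.23 in limma on log2(FPKM + 1). Mef2c and Runx3 had -0.26 and -0.24 (edgeR adjusted p of 0.0561 and 0.401), and the median of the 10 was 0.16. Whether the lower Erg had a part in these values was not tested.

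The 13 tested of 15 genes with ETS-responsive promoters in mesenchymal cells all had a log2 fold change above 0, with a median of 0.50. Of these, 5 were called higher, or 38.5% beside 2.67% of all genes tested. Nothing is read from this share, since the list was chosen with earlier results of these data known. Of the 5, Mmp13 and Spp1 also stand in the hypertrophy list. The other 3 were Mmp9, a gelatinase gene, at 2.88, Mmp3, the stromelysin gene, at 1.02, and Plau, the urokinase gene, at 0.66 (adjusted p from 0.0018 to 0.00428, edgeR). Mmp9 was low, at 7 to 18 counts in CON and 78 to 121 in RA, and its value was 0.80 in limma on log2(FPKM + 1), still called. Timp1 and Tgfbr2, at 0.071 and 0.081, lay below 0 without CON sample 1 (-0.019 and -0.040). Ccn2, at 0.55 (edgeR adjusted p = 2.53e-04), and Egr1, an early response gene with serum response elements that Elk factors bind, at 0.50 (edgeR adjusted p = 0.0157), stayed under the fold threshold, and without CON sample 3 Egr1 was called at 0.60. Col1a2 and Mcl1 were not analysed here.

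Partners and regulators of ETS proteins held no called gene. Of 22 tested (among them the GABP beta subunits, Srf, Runx factors, ERK kinases, co-activators, co-repressors and ubiquitin ligases) edgeR, DESeq2 and limma each called 0, beside 4.96% of all genes tested by edgeR, and 7 had an unadjusted p under 0.05, as did 24.0% of all genes tested. The median log2 fold change was 0.016, within a range of -0.39 to 0.53. The upper end was Jun, the AP-1 subunit that ETS1 and ERG are known to work with, at 17.3 ± 1.99 and 25.3 ± 0.177 FPKM (n = 3, SD) and 0.53 (edgeR adjusted p = 0.00674), under the fold threshold, and without CON sample 2 it was called at 0.59. The 8 mitochondrial genes known as GABP targets all had log2 fold changes below 0, with a median of -0.11, and without CON sample 1 that of Tfam was above 0, at 0.097. EdgeR, DESeq2 and limma each called 0 of them, and 1 had an unadjusted p under 0.05, beside the same 4.96% and 24.0%, namely Tfb1m, a mitochondrial transcription factor gene, at -0.46 (edgeR adjusted p = 0.0416), which missed the fold threshold. Of 8 fibroblast and perichondrium markers 1, Postn, was called, as lower, at -1.28 (edgeR adjusted p = 2.31e-04), or 12.5% beside 2.29% of all genes tested, and the median was 0.065. The fibroblast markers Pdgfra, Twist1 and Dcn passed the adjusted p alone, at 0.44, 0.43 and -0.41, which makes 4 of 8 with no fold threshold, beside 9.82% of all genes tested.

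**Figure D4:**
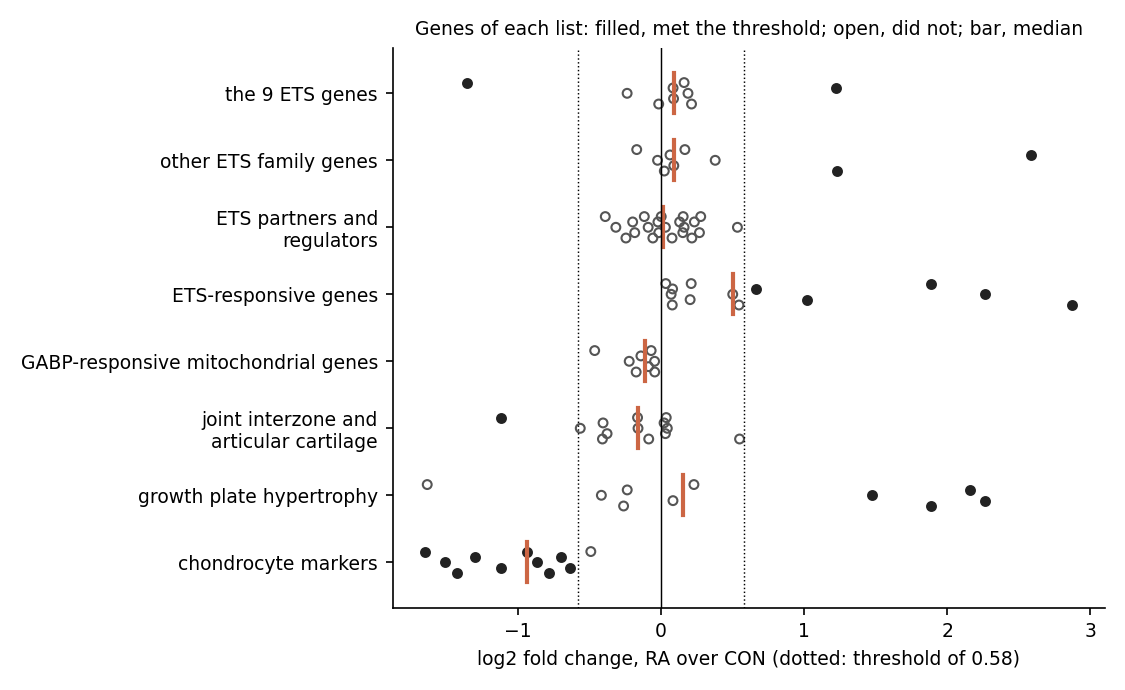
Log2 fold change of RA over CON for each tested gene of 8 lists (filled, adjusted p below 0.05 and beyond 0.58; open, not; orange bar, median; dotted lines at 0.58). The medians are 0.088 for the 9 ETS genes, 0.090 for other ETS genes, 0.016 for partners, 0.50 for ETS-responsive genes, -0.11 for GABP-responsive genes, -0.16 for joint genes, 0.16 for hypertrophy genes and -0.93 for chondrocyte markers.

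The genes most like Erg across the 6 samples were sought among the 11341 other tested genes with a mean of at least 1 FPKM, by Pearson correlation of log2 CPM. The 5 highest were Cthrc1 (r = 0.999), Slc35d1 (0.998), S100b (0.997), Specc1l (0.997) and Ltv1 (0.997). Slc35d1, a nucleotide sugar transporter gene known for its need in cartilage, and S100b, a calcium-binding protein gene of chondrocytes, were called lower, with log2 fold changes of -0.76 and -0.72 (adjusted p = 3.62e-04 and 5.71e-04, edgeR). Cthrc1, Specc1l and Ltv1 had -0.54, -0.31 and -0.40. All 5 had smaller differences than Erg. The 6 points fall into the 2 groups of the comparison, so these values mostly restate the difference between CON and RA, and 374 genes had r above 0.95.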

How the data were processed

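Poly(A) RNA of primary rat chondrocytes, 3 CON and 3 RA samples, was sequenced on an Illumina HiSeq instrument from NEBNext Ultra libraries. The authors deposited whole-number read counts per gene and sample, without normalization, and FPKM values, which scale the counts by gene length and total count. The submitters' processing notes name HISAT2, HTSeq 0.13.5 and the build Rnor_6.0. The annotation and the use of strand are not given in the sources used here, so genes that overlap others are uncertain.

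Samples were grouped and numbered by their titles. Counts were tested with edgeR 4.0.16 in R 4.3.3 (TMM, filterByExpr with a minimum count of 10, glmQLFit and glmQLFTest, no covariates) over all genes, with Benjamini-Hochberg adjustment over all 13438 tested. The study's methods give a p below 0.05 with a log2 fold change beyond 0.58 and its results an FDR, which were joined. Standard errors came from the F statistic. FPKM values are mean ± SD. Log2 CPM values used TMM and a prior count of 2. The 9 genes and all lists were chosen with earlier results of these data known. Named were all ETS genes, the 5 genes most like Erg and the called genes of each list, but only some of the called chondrocyte markers. Others (Jun, Egr1, Ccn2, Prg4, Gdf5, Nog, Dcx, Chrd, Sox9, Alpl, Mef2c, Runx3, Tfb1m, Egfl7, Ihh, Timp1, Tgfbr2, Tfam, Ehf and marker genes) were named after their values were seen. Where a symbol had several identifiers, that with the highest total count was used.

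Alternatives were DESeq2 1.42.0, RLE factors, 2 other filters, 2 other call rules, limma 3.58.1 on log2 FPKM with pseudocounts of 0.1 and 1, each sample left out, and the replicate number as a block. Total counts ran from 29370025 to 38007486. About 3 counts, the upper limit for a count of 0 at 95% confidence, are thus 0.0789 to 0.102 CPM, for counting error only. On simulated counts of 13438 genes for the RA against CON comparison, with 200 genes changed, edgeR called 85% of those changed by 1 and 96% of those changed by 2 on the log2 scale, and 16 unchanged genes. No column of the authors' own comparisons was present.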

Additional observations from a re-analysis of the deposited data

How the results depend on the processing

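Erg stayed lower and Etv1 higher in RA, both past the call rule, under each alternative run. The log2 fold change ran from -1.36 to -1.12 for Erg and from 0.91 to 1.23 for Etv1 over the alternatives other than left-out samples, with the smallest sizes in limma on log2(FPKM + 1), where a pseudocount of 1 shrinks differences of low genes. The number called was 2 of the 9 ETS genes and 2 of the 9 other tested ETS genes under each. Over all genes, 667 were called (359 higher, 308 lower). This was 434 (178 lower) in limma on log2(FPKM + 1), 1319 (714 higher, 605 lower) with no fold threshold and 1017 (513 lower) with an unadjusted p, and 480 to 755 with each sample left out. Of the genes in the other lists 19 were called, 30 with no fold threshold. With each sample left out, the sign turned for 3 of the 9 ETS genes, Fli1 (-0.059 to 0.25), Elf1 (-0.014 to 0.23) and Gabpa (-0.11 to 0.11), and for 18 of the 99 other tested genes of the lists. Among these were Erf (-0.10 to 0.15), Etv3 (-0.076 to 0.017), Spi1 (-0.20 to 0.75), Gdf5 (-0.019 to 0.080) and Egfl7 (-0.28 to 0.020). The same replicate numbers in both groups did not pair the samples: the correlations of their deviations from the group means were 0.0928, -0.0123 and 0.0118. With the replicate block 684 genes were called, with 2 of the 9 ETS genes and 2 of the other ETS genes among them. Depth limits Spi1, with 7 to 22 counts per sample, and the 6 ETS genes with 0 to 17 counts, which were not tested. Spi1, Ihh, Tek and Csf1r were among the genes with no value under the filter of 1 CPM in 3 samples. The cause of the other shifts was not tested.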
